A study of Mus musculus with 16 samples.

Results

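Interferons signal to monocytes through paired receptor chains and the Janus kinases bound to them. Here 8 genes for these chains and for the Janus kinases were followed through a mouse monocyte experiment. They are Ifngr1 and Ifngr2, the chains of the receptor for IFN-γ, Ifnar1 and Ifnar2, the chains of the receptor for type I interferons, and Jak1, Jak2, Jak3 and Tyk2, the Janus kinases. The genes were chosen by symbol for these roles, and all 8 are among the 13085 genes of the deposited table.

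The study asked how loss of NFAM1, a surface receptor of myeloid cells, alters the activation of monocytes. RNA was sequenced from monocytes of NFAM1+/+ and NFAM1-/- mice after 6 h or 24 h in culture, either left unstimulated or given IFN-γ followed by 1 µg/mL MegaCD40L, a multimeric form of the ligand of CD40. By their titles the 16 libraries form 8 groups of 2. WT_NoStm_6 and KO_NoStm_6 are unstimulated cells of either genotype at 6 h, WT_IFN_CD40L_6 and KO_IFN_CD40L_6 are stimulated cells at 6 h, and WT_NoStim_24, KO_NoStim_24, WT_IFN_CD40L_24 and KO_IFN_CD40L_24 are their counterparts at 24 h. NFAM1-/- mice carry a Cas9 deletion of exons 2 and 3, made in C57BL/6NTac zygotes, and the labels give the strain of every library as C57BL/6. The labels call the cells PBL monocytes, whereas the paper's methods describe enrichment from bone marrow, and the dose of IFN-γ differs between labels and methods. No library with IFN-γ alone is in the table, so effects of IFN-γ and of CD40L cannot be told apart. The labels give no age and do not say which mouse a library comes from. The paper names fewer mice of each genotype than there are libraries, so by its account some libraries share a mouse, and which ones do is not given. All libraries were tested as independent.

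Before the results, 1 conflict in the labels bears on genotype. In 4 of the 8 libraries at 24 h the title names one genotype and the genotype tag the other. These are WT_NoStim_24 replicate 44, KO_NoStim_24 replicate 46, WT_IFN_CD40L_24 replicate 56 and KO_IFN_CD40L_24 replicate 58. Groups below follow the titles, and the results at 24 h were also computed by tag and without these 4 libraries. Nfam1 itself stood at 432 and 408 CPM in the unstimulated NFAM1+/+ libraries at 6 h and at 299 and 321 CPM in the NFAM1-/- libraries. With the stimulus at 6 h it stood at 133 and 129 CPM in NFAM1+/+ and at 135 and 127 CPM in NFAM1-/-, and the genotypes overlapped. At 24 h the libraries titled WT held 463 and 495 CPM without and 271 and 252 CPM with the stimulus, and those titled KO held 441 and 391 CPM without and 201 and 223 CPM with it. Grouped by title these did not overlap in either condition, and grouped by genotype tag they overlapped in both. Reads over the whole gene include the exons that were not deleted, so these levels check no label.

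The deposited values are log2 CPM (reads of a gene over the scaled size of its library), and the reads behind each value could be recovered from them. The libraries held 48295939 to 88514341 reads on the listed genes. Jak3 had the fewest reads of the 8 genes, 914 in its lowest library, and Jak2 reached 103733 in its highest. The authors' scaling differs by condition. The reads of a library over its scaled size ran from 0.756 to 0.775 without stimulus at 6 h, from 1.24 to 1.316 with stimulus at 6 h, from 0.776 to 0.788 without stimulus at 24 h and from 0.97 to 0.997 with stimulus at 24 h. Scaling each library to its own total of reads instead moves the median log2 change of all tested genes with the stimulus from -0.13 to -0.86 at 6 h and from 0.01 to -0.33 at 24 h. For the stimulus and time effects on the 8 genes, directions that depend on this choice are named where they occur.

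All 10 monocyte markers on a list of defining genes were listed, led by Lyz2, which codes for lysozyme, at a mean of 12058 CPM. The summed level of these markers was 22599 to 24761 CPM in unstimulated and 8312 to 10163 CPM in stimulated libraries at 6 h, and 26773 to 30923 CPM against 8376 to 11594 CPM at 24 h. Of these markers Ly6c2 (424 against 2401 CPM at 6 h) and Fcgr1 (31.8 against 703 CPM at 6 h) had higher means with the stimulus at both times. The 10 neutrophil markers summed to 373 to 484 CPM without and 323 to 595 CPM with the stimulus at 6 h, and to 1108 to 1646 CPM against 360 to 436 CPM at 24 h, with Csf3r the most abundant. The sum of the 4 B cell markers listed, led by Ighm, ran from 135 to 154 CPM without and from 312 to 371 CPM with the stimulus at 6 h, and from 136 to 212 against 35.7 to 44.1 CPM at 24 h. The higher sum at 6 h is Ighm alone, since Cd79a, Cd79b and Cd22 had lower means with the stimulus. Of 8 T cell markers 3 were listed, Cd3d, Cd3e and Cd3g were not, and the sum ran from 0.605 to 1.47 CPM without and from 3.61 to 4.83 CPM with the stimulus at 6 h, and from 4.36 to 7 against 3.03 to 4.55 CPM at 24 h. Klrk1 was the only 1 of 7 NK cell markers listed and ran from 8.70 to 11.0 CPM without and from 391 to 434 CPM with the stimulus at 6 h, and from 9.83 to 17.5 against 53.4 to 126 CPM at 24 h. The 5 plasmacytoid dendritic cell markers, led by Tcf4, summed to 23.7 to 35.4 CPM without and 93.7 to 131 CPM with the stimulus at 6 h, and to 61.2 to 92.4 against 36.1 to 39.0 CPM at 24 h. Most of the higher sum at 6 h is Tcf4 (19.7 against 103 CPM), Siglech had a lower mean with the stimulus at both times, and Cox6a2 a higher one. The 5 conventional dendritic cell markers summed to 47.6 to 61.1 against 33.4 to 47.3 CPM at 6 h and to 129 to 279 against 31.8 to 37.4 CPM at 24 h, and within these lower sums Clec9a, Xcr1 and Zbtb46 had higher means with the stimulus at both times. Of 7 erythroid markers 5 were listed, led by Hbb-bs, and their sum reached 45.3 CPM at most. The part of these shifts in the values below was not tested. In bulk RNA, fewer cells of a type and less RNA per cell cannot be told apart.

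As background, IFN-γ binds Ifngr1, the ligand-binding chain, and Ifngr2 then joins the complex. Jak1 sits on Ifngr1 and Jak2 on Ifngr2, and the activated kinases phosphorylate transcription factors. Type I interferons use Ifnar1, which carries Tyk2, and Ifnar2, which carries Jak1. Jak3 works with the common γ chain of the receptors for IL-2 and related cytokines and has no place in either interferon receptor. In monocytes and macrophages IFN-γ is known as a strong activator that raises antigen presentation and antimicrobial genes.

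Levels of different genes were compared as CPM per kb of merged exon (GENCODE vM21, GRCm38), since longer transcripts yield more reads. In unstimulated cells at 6 h the receptor chains stood above the kinases by this length, whereas by the longest transcript Jak1 (48.9 CPM per kb) stood above Ifnar2 (45.7 CPM per kb). Ifngr1 was highest at 148 ± 14 CPM per kb (SD, n = 4 libraries), followed by Ifngr2 at 78.5 ± 1.96, Ifnar1 at 62.7 ± 2.47 and Ifnar2 at 41.8 ± 1.24. Jak1 at 33.2 ± 1.37 and Jak2 at 33 ± 3.65 CPM per kb overlapped, and Tyk2 at 23.1 ± 0.872 and Jak3 at 2.48 ± 0.189 came last. All other neighbours in this order were separated in all 4 libraries. With the stimulus at 6 h Jak2 headed the list at 314 ± 42.6 CPM per kb, and Ifngr1 stood 7th at 28.5 ± 0.905, above Jak3 alone. Between them lay Ifngr2 at 53.4 ± 6.32, Jak1 at 51 ± 2.27, Tyk2 at 43.8 ± 0.838, Ifnar2 at 40.5 ± 3.09 and Ifnar1 at 36 ± 2.96, with overlap between Ifngr2 and Jak1 and between Ifnar2 and Ifnar1.

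At 24 h without stimulus the order again ran from Ifngr1 (173 ± 7.6 CPM per kb, n = 4) through Ifnar1, Ifngr2, Ifnar2, Jak1, Jak2 and Tyk2 to Jak3 (6.73 ± 0.737), and only Ifnar1 and Ifngr2 overlapped as neighbours. With the stimulus at 24 h Jak2 led at 183 ± 12 CPM per kb, ahead of Ifngr2 at 53.9 ± 2.38 and Ifngr1 at 48.1 ± 3.94, which overlapped. Jak1, Ifnar2, Tyk2, Ifnar1 and Jak3 followed, from 40.2 ± 0.878 down to 16.4 ± 2.03 CPM per kb, and Ifnar2 overlapped with Tyk2. The middle of each order depends on the length used. With the longest transcript in place of merged exons, 15 of the 32 positions over the 4 conditions stayed the same, among them Jak3 as the lowest in all 4 and the highest gene of each condition.

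**Figure D1:**
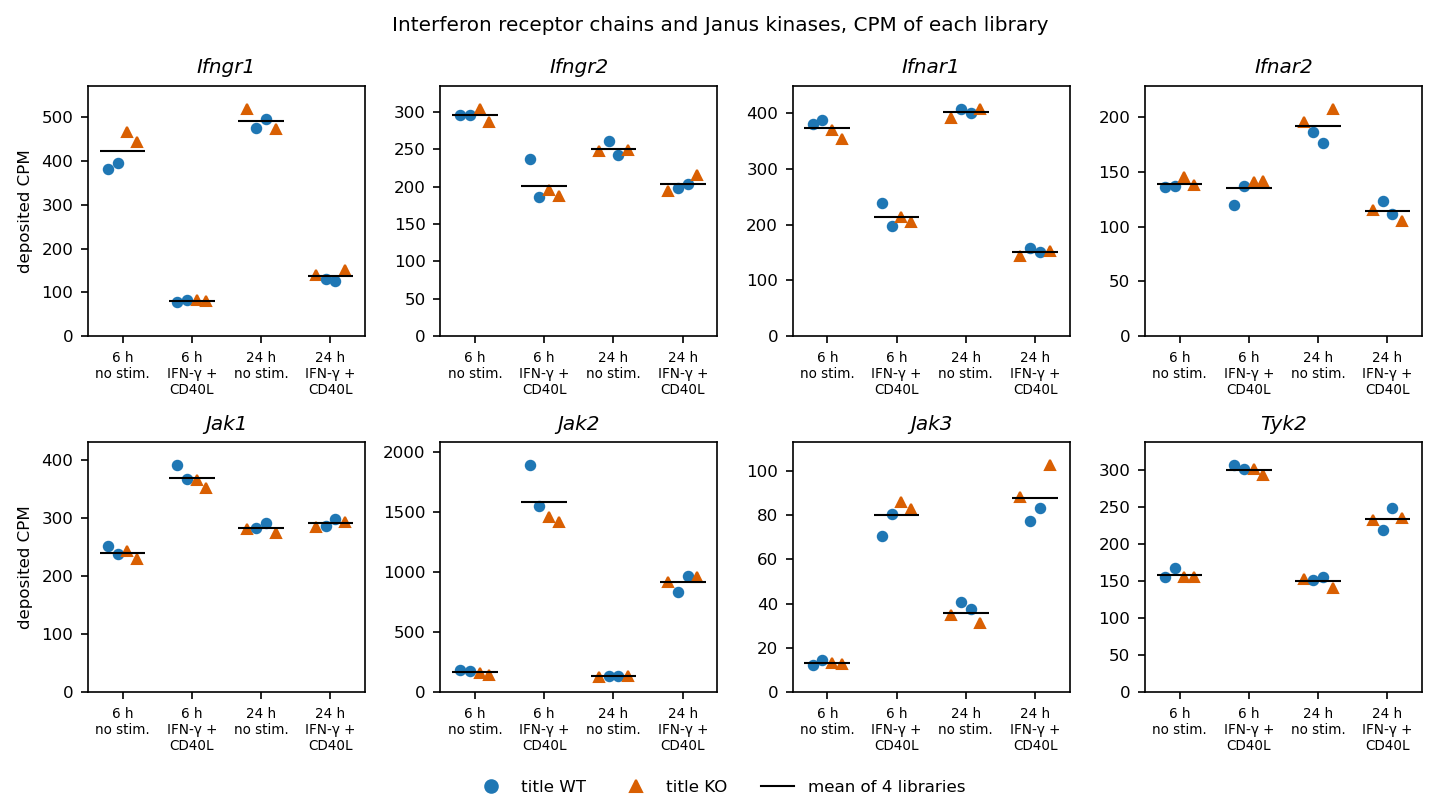
CPM of the 8 genes in each of the 16 libraries by time and stimulus (deposited scaling, linear axis from 0), with circles for libraries titled WT, triangles for libraries titled KO and a line at the mean of 4 libraries. Jak2 lies at 145 to 183 CPM without and 1416 to 1889 CPM with the stimulus at 6 h, and Ifngr1 at 382 to 466 against 78.3 to 83.4 CPM.

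The comparison of stimulated with unstimulated cells asks how IFN-γ plus CD40L acts on the monocytes. At 6 h the stimulus raised Jak2 and Jak3 and lowered Ifngr1, each by more than 2-fold. These 3 were the genes of the 8 that passed both an adjusted p under 0.05 and a fold change of at least 2 (limma, Benjamini-Hochberg over the 12782 genes tested), and 39.7% of all tested genes did. The 2 that rose stand against 19.1% of tested genes called higher, and the 1 that fell against 20.6% called lower. At an adjusted p under 0.05 with any fold change 7 of the 8 passed, 4 higher and 3 lower, where 78.3% of all tested genes passed. The median log2 change of the 8 was 0.29, beside -0.13 over all tested genes. Own totals lower every change at 6 h by more than 0.29, so the sign of the median of the 8 turns with the scaling.

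Ifngr1 was the receptor chain that changed most. It stood at 382 and 395 CPM in the unstimulated NFAM1+/+ libraries at 6 h and at 466 and 444 CPM in the NFAM1-/- libraries, against 78.3, 83.4, 83.2 and 79.5 CPM in the 4 stimulated libraries. The stimulated libraries of both genotypes lay close together, and all were below every unstimulated library. The log2 change was -2.38 (95% interval -2.48 to -2.27, limma adjusted p = 1.25e-14), a 5.19-fold lower level. Ifngr1 ranked 583rd from the lowest among the 12782 tested genes.

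Ifngr2, the chain that completes the IFN-γ receptor, stood at 286 to 304 CPM without and 186 to 236 CPM with the stimulus at 6 h, and the conditions did not overlap. Its log2 change of -0.56 (limma adjusted p = 2.51e-06, lower in 4 of 4 stimulated libraries) was smaller than that of its partner, and it passed the 2-fold limit only when libraries were scaled to their own reads (-1.29) or quantile normalized (-1.29). The highest stimulated value, 236 CPM, came from WT_IFN_CD40L_6 replicate 26, and the other 3 lay at 186 to 195 CPM.

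Ifnar1, the chain that binds Tyk2, held 380, 387, 370 and 353 CPM in the 4 unstimulated libraries at 6 h and 238, 198, 214 and 205 CPM in the 4 stimulated ones. All 4 stimulated libraries were lower, with a log2 change of -0.80 (95% interval -0.92 to -0.68, limma adjusted p = 8.08e-09), and scaling to own reads (-1.53) or quantile normalization (-1.58) took it past 2-fold. Ifnar2, the high-affinity chain of the type I receptor, held 136 to 145 CPM without and 120 to 142 CPM with the stimulus at 6 h, and the conditions overlapped. Its log2 difference at 6 h was -0.05 (95% interval -0.17 to 0.07, limma adjusted p = 0.443) under the deposited scaling, -0.78 with each library's own total, -0.55 after quantile normalization and 0.12 after centring on medians, so its direction turns on the scaling.

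Jak2, the kinase bound to Ifngr2, had the largest log2 change of the 8 under the deposited scaling and after centring, whereas Ifngr1 moved further with own totals and after quantile normalization. Its unstimulated libraries at 6 h held 183 and 180 CPM in NFAM1+/+ and 156 and 145 CPM in NFAM1-/-, and its stimulated libraries held 1889 and 1550 CPM in NFAM1+/+ and 1461 and 1416 CPM in NFAM1-/-. Every stimulated library lay far above every unstimulated one. The log2 change was 3.25 (95% interval 3.11 to 3.39, limma adjusted p = 1.27e-14), a 9.50-fold rise under the deposited scaling, and it was 2.52 with own totals and 2.32 after quantile normalization. Jak2 ranked 797th from the highest of the tested genes.

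Jak3, the kinase of the common γ chain, had the lowest resting level. It held 12.4, 14.7, 13.3 and 12.7 CPM in the unstimulated libraries at 6 h and 70.7, 80.8, 86.1 and 82.6 CPM in the stimulated ones, with no overlap. The log2 change was 2.59 (95% interval 2.43 to 2.76, limma adjusted p = 5.38e-13), a 6.04-fold rise, and 1.86 with own totals.

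Tyk2, the kinase bound to Ifnar1, held 155 to 168 CPM without and 293 to 307 CPM with the stimulus at 6 h. It was higher in all 4 stimulated libraries, by 0.93 on the log2 scale (95% interval 0.82 to 1.03, limma adjusted p = 4.81e-10), and by 0.19 with own totals, 0.20 after quantile normalization and 1.09 after centring on medians. Centring took it past 2-fold. An antisense gene, 1700084C06Rik, shares 554 exon bases with Tyk2, and the library kit does not mark strand, so reads of this stretch cannot be assigned to either gene. Its mean level was 0.567 CPM. Ifnar2 shares 315 exon bases with Gm21970 on its own strand and Jak3 shares 404 with Insl3, and neither partner is in the table, so these 3 genes carry that uncertainty.

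Jak1, the kinase that serves both interferon receptors, held 252, 237, 243 and 228 CPM in the unstimulated libraries at 6 h and 391, 367, 365 and 351 CPM in the stimulated ones under the deposited scaling. That is a log2 difference of 0.62 (limma adjusted p = 1.12e-08) with no overlap. With own totals it was -0.11 (adjusted p = 0.0219, limma) and after quantile normalization -0.24 (adjusted p = 0.000105, limma), so no direction can be given for Jak1. Relative to the median change of all tested genes Jak1 lay 0.74 higher under the deposited scaling, own totals and centring alike, since these shift all genes of a library together, and at -0.01 after quantile normalization.

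Set against that median in the same way, Ifngr1 changed by -2.25, Ifnar1 by -0.68, Ifngr2 by -0.44, Ifnar2 by 0.08, Tyk2 by 1.05, Jak3 by 2.72 and Jak2 by 3.37 at 6 h. After quantile normalization the same differences were -2.71, -1.35, -1.06, -0.33, 0.43, 2.71 and 2.55. Ifnar2 is the gene among these 7 whose sign differs between the 2 sets.

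**Figure D2:**
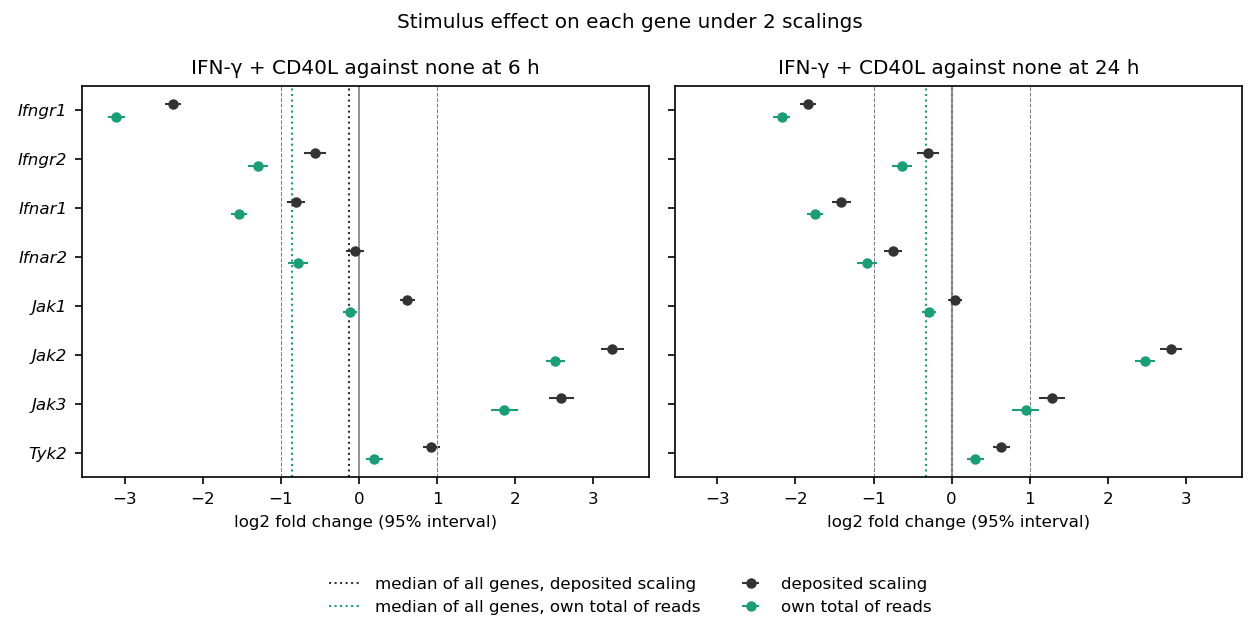
Log2 fold change of each gene with the stimulus at 6 h (left) and 24 h (right) with 95% intervals, under the deposited scaling (dark) and after scaling by the reads of each library alone (green); dotted lines mark the median of all tested genes and dashed lines a 2-fold change. Jak2 lies at 3.25 and 2.52 at 6 h and Ifngr1 at -2.38 and -3.11, while Jak1 changes sign, from 0.62 to -0.11.

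Promoter sequences from RefSeq (GRCm38.p6), 250 bases before to 50 after the start, were matched for all 8 genes. They were searched on both strands for TTCNNNGAA, the GAS element, and GAAANNGAA, the core of the ISRE element, both found in promoters that respond to interferons. GAS occurs in 8.3% and the ISRE core in 8.56% of all 32851 mouse promoters of this length. Of the 8 genes, 2 hold GAS, 1 holds the ISRE core and 5 hold neither in this window. The promoters of the 3 genes called at 6 h are shown because their RNA moved most, with motif letters in capitals.
Jak2, chr19:29251553-29251852, plus strand: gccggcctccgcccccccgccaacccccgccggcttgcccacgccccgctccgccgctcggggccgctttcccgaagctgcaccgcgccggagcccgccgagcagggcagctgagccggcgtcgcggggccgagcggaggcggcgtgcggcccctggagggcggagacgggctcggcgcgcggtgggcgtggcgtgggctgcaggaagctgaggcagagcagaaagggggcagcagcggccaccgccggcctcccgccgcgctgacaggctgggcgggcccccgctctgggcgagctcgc
Jak3, chr8:71676133-71676432, plus strand: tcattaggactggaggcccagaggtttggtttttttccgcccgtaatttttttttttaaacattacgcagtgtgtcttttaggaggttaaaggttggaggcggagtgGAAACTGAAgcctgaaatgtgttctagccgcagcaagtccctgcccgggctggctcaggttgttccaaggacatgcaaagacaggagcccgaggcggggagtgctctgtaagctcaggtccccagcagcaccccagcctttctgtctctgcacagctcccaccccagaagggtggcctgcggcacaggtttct
Ifngr1, chr10:19591699-19591998, plus strand: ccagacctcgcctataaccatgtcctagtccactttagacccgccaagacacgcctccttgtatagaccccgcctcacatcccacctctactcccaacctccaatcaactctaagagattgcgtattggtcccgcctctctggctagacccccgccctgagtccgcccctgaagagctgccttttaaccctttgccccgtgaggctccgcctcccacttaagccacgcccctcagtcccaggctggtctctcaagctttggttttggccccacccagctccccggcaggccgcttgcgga

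The Jak3 promoter holds the ISRE core GAAACTGAA, its first base 143 bases before the start. Ifnar1 holds GAS as TTCACGGAA, 5 bases before the start, and Ifnar2 as TTCCTGGAA, 214 bases before it. Ifnar1 and Ifnar2 are the pair in which 1 chain was lower at 6 h and the other had no direction that all scalings shared. Jak2 and Ifngr1 hold neither motif in this window. A match of these letters is a description of the sequence only.

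At 24 h the stimulus comparison again had Jak2 and Jak3 higher and Ifngr1 lower, and Ifnar1 joined the genes past 2-fold. These 4 were called (limma, adjusted p under 0.05 and at least 2-fold), where 33.3% of tested genes were, with 2 higher against 14.6% of tested genes and 2 lower against 18.7%. With any fold change 7 of the 8 passed, 3 higher and 4 lower, where 74.8% of tested genes did. The median log2 change of the 8 was -0.13, beside 0.01 over all tested genes.

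Jak2 at 24 h held 131, 134, 124 and 135 CPM in the unstimulated libraries 44, 45, 43 and 46 and 834, 968, 918 and 954 CPM in the stimulated libraries 56, 57, 55 and 58. The log2 change was 2.81 (95% interval 2.67 to 2.95, limma adjusted p = 1.08e-13), a 7.01-fold rise. Jak3 held 31.3 to 40.6 CPM without and 77.2 to 103 CPM with the stimulus, and its log2 change of 1.28 (limma adjusted p = 1.63e-09, higher in 4 of 4) fell under 2-fold, to 0.95, with own totals. Both kinases were thus higher in every stimulated library at both times.

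Ifngr1 at 24 h held 473 to 520 CPM without and 127 to 151 CPM with the stimulus, a log2 change of -1.84 (95% interval -1.95 to -1.74, limma adjusted p = 2.83e-13). Ifnar1 held 391 to 408 CPM without and 144 to 158 CPM with it, a log2 change of -1.41 (95% interval -1.53 to -1.29, limma adjusted p = 2.09e-11). Neither gene's conditions overlapped. Ifnar2, which had no settled direction at 6 h, held 176 to 208 CPM without and 105 to 123 CPM with the stimulus at 24 h and was lower by -0.75 on the log2 scale (limma adjusted p = 1.92e-08), and its change passed 2-fold with own totals (-1.08) and after quantile normalization (-1.12). Ifngr2 was lower by -0.30 (limma adjusted p = 0.000907) and Tyk2 higher by 0.64 (limma adjusted p = 3.7e-08), in 4 of 4 stimulated libraries each. Their changes were -0.63 and 0.30 with own totals and -0.68 and 0.30 after quantile normalization. Jak1 differed by 0.04 (95% interval -0.05 to 0.14, limma adjusted p = 0.371), by -0.29 with own totals and by -0.37 after quantile normalization. Leaving out the 4 libraries with conflicting labels kept the counts at 4 called and 7 with any fold change.

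The difference between the stimulus effects at 24 h and at 6 h was tested as an interaction. Jak3 passed both limits, where 31.5% of tested genes did, with a log2 difference of -1.31 (95% interval -1.54 to -1.08, limma adjusted p = 1.4e-07), and with own totals it was -0.91 and under 2-fold. All 8 genes passed with any fold change, where 67.2% of tested genes passed. The effect on Ifnar2 was lower at 24 h by -0.70, that on Ifnar1 by -0.61 and that on Jak1 by -0.57 (limma adjusted p = 2.6e-06, 1.16e-05 and 2.13e-06). With own totals these were -0.31, -0.21 and -0.18, and after quantile normalization Jak1 no longer passed (-0.13, limma adjusted p = 0.0741). The effect on Ifngr1 was less negative at 24 h, by 0.53 (limma adjusted p = 9.95e-06), and by 0.93 with own totals. Jak2 differed by -0.44 under the deposited scaling, by -0.04 with own totals and by 0.07 after quantile normalization, and Tyk2 by -0.29, 0.11 and 0.10, so neither has a direction here. Ifngr2 differed by 0.26 (limma adjusted p = 0.0243), and this passed no longer without KO_NoStm_6 replicate 3, KO_IFN_CD40L_6 replicate 12, WT_NoStim_24 replicate 45 or KO_IFN_CD40L_24 replicate 58 (adjusted p from 0.053 to 0.0589), without the 4 libraries with conflicting labels (0.106), with no trend in the prior (0.0519) or after centring on medians (0.402). It was larger and passed with own totals (0.66) and after quantile normalization (0.61).

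The comparison of 24 h with 6 h in unstimulated cells asks how the genes differ with time in culture, over which the summed monocyte, neutrophil, T cell and dendritic cell markers were also higher without overlap, and their part was not tested. Within these higher sums Cd14, Cx3cr1 and Xcr1 had lower means at 24 h. Jak3 rose from 12.4 to 14.7 CPM at 6 h to 31.3 to 40.6 CPM at 24 h, a log2 change of 1.44 (95% interval 1.28 to 1.60, limma adjusted p = 1.66e-09). It was the 1 gene of the 8 called, where 21% of tested genes were. Its stimulated levels, 70.7 to 86.1 CPM at 6 h and 77.2 to 103 CPM at 24 h, overlapped under the deposited scaling, and with own totals, at 53.7 to 67.6 against 77.4 to 106 CPM, they did not. With any fold change 6 of the 8 passed, 4 higher and 2 lower, where 64.4% of tested genes did. Ifnar2 was higher at 24 h by 0.46, Jak1 by 0.23 and Ifngr1 by 0.22, and Jak2 was lower by -0.34 and Ifngr2 by -0.24. These 5 kept their direction under all 3 other scalings. Ifnar1 (0.11, limma adjusted p = 0.103) and Tyk2 (-0.08, limma adjusted p = 0.199) did not pass. Ifnar1 did not overlap between the times, and it passed after quantile normalization (0.13, limma adjusted p = 0.0155), with only the groups compared in the fit (0.0366), and without WT_IFN_CD40L_6 replicate 26 (0.0312) or replicate 10 (0.0313).

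In stimulated cells 0 of the 8 genes were called between 24 h and 6 h at 2-fold (limma), where 33.7% of tested genes were, and 6 had an unadjusted p under 0.05, where 77.6% of tested genes did. With own totals 1 was called, Ifngr1 (1.13), where 4890 of the 12782 tested genes were. With any fold change 6 passed, 1 higher and 5 lower, where 76.4% of tested genes did. Ifngr1 was higher at 24 h by 0.75 (limma adjusted p = 4.34e-09), with 78.3 to 83.4 CPM at 6 h and 127 to 151 CPM at 24 h. Jak2 was lower by -0.78 (limma adjusted p = 8.8e-08) and Ifnar1 by -0.50 (limma adjusted p = 1.59e-06), in 4 of 4 libraries each. The sizes depend on the scaling, with Jak2 at -0.40 and Ifnar1 at -0.13 with own totals and Jak2 at -0.26 and Ifnar1 at -0.13 after quantile normalization. The lower values of Ifnar2 (-0.24), Jak1 (-0.34) and Tyk2 (-0.36) became 0.13, 0.03 and 0.01 with own totals, so their direction turns on the scaling. Ifngr2 (0.02, limma adjusted p = 0.807) and Jak3 (0.13, limma adjusted p = 0.132) did not pass, but with own totals they were 0.39 and 0.50 and after quantile normalization 0.36 and 0.26, all with a limma adjusted p under 0.05, and after centring on medians -0.16 and -0.05. The summed B cell, NK cell, plasmacytoid dendritic cell and erythroid markers of stimulated cells were also lower at 24 h, without overlap. Within these sums Cd79b, Cd22, Ccr9, Ly6d and Cox6a2 had higher means at 24 h. The part of these shifts was not tested.

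Ratios of 2 genes within a library do not change when a library is scaled by a single factor, so the partner chains and the kinases were compared in that way. The 5 pairs are Ifngr2 to Ifngr1, Ifnar2 to Ifnar1, and Jak2, Jak3 and Tyk2 each to Jak1. In all 5 pairs and at both times the 4 stimulated libraries lay above the 4 unstimulated ones. Most tested genes differed with the stimulus, 78.3% at 6 h and 74.8% at 24 h (limma, adjusted p under 0.05). How many other pairs of genes separate as well was not computed. Each of the 10 tests gave an exact permutation p of 0.0286 (two-sided, 70 assignments of 4 against 4 libraries), the smallest such a test can give, and 0.0286 after Benjamini-Hochberg adjustment over the 10.

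In the IFN-γ receptor the reads of Ifngr2 went from fewer to more than those of Ifngr1. The log2 ratio of Ifngr2 to Ifngr1 was -0.51 ± 0.136 (SD, n = 4) without and 1.31 ± 0.197 with the stimulus at 6 h, and -0.97 ± 0.0939 against 0.57 ± 0.0984 at 24 h. Ifngr1 reads, which outnumbered those of Ifngr2 in all unstimulated libraries, were the fewer in all stimulated ones. Per kb the order of these chains in stimulated cells at 24 h depends on the length used, with an overlap by merged exons and Ifngr1 the higher, at 64.9 against 54.8 CPM per kb, by the longest transcript. In the type I receptor the log2 ratio of Ifnar2 to Ifnar1 rose from -1.42 ± 0.0813 to -0.66 ± 0.222 at 6 h and from -1.07 ± 0.102 to -0.41 ± 0.0924 at 24 h. WT_IFN_CD40L_6 replicate 26 was the lowest stimulated library of that pair, at -0.99, and still above every unstimulated one.

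Among the kinases the ratio of Jak2 to Jak1 changed most. Its log2 value rose from -0.54 ± 0.128 to 2.09 ± 0.126 at 6 h, a difference of 2.63, and from -1.11 ± 0.0604 to 1.66 ± 0.0786 at 24 h, a difference of 2.76. The log2 ratio of Jak3 to Jak1 rose by 1.98 at 6 h and by 1.24 at 24 h. For Tyk2 to Jak1 the rise was 0.31 at 6 h, from -0.60 ± 0.088 to -0.29 ± 0.0385, and 0.59 at 24 h. Jak1 is thus the kinase whose share fell against each of the other 3.

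**Figure D3:**
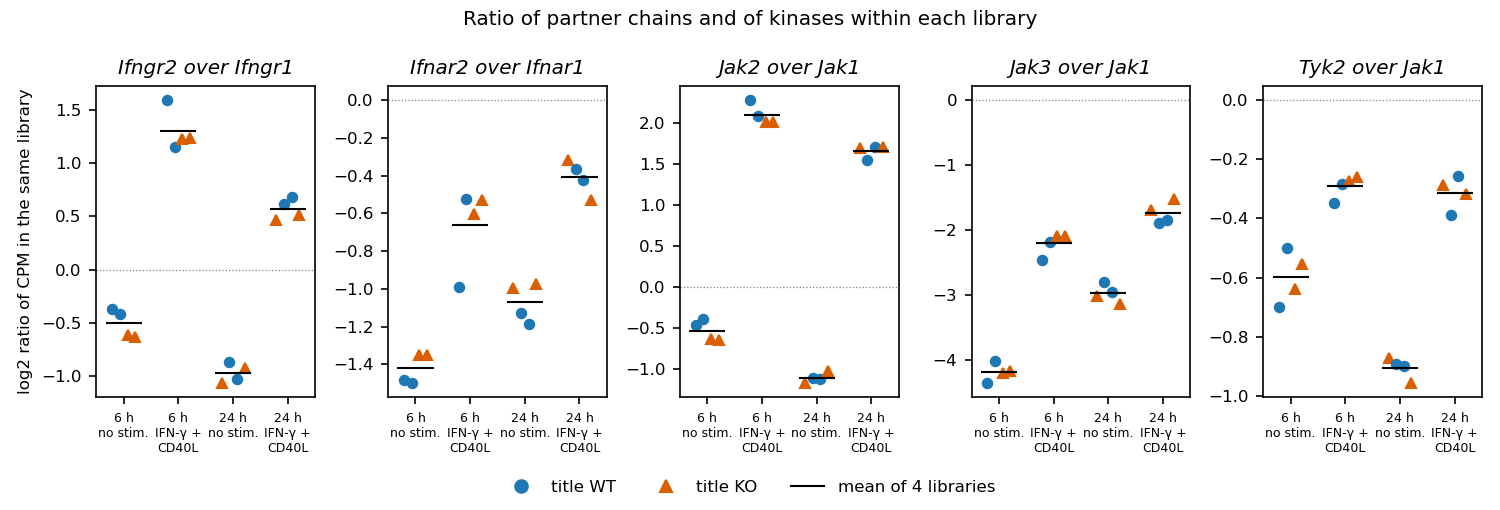
Log2 ratio of CPM between 2 genes in the same library, by time and stimulus, for the 5 pairs, with circles for libraries titled WT, triangles for libraries titled KO and lines at the mean of 4. In each panel the stimulated libraries lie above the unstimulated libraries of the same time, by a mean of 2.63 (6 h) and 2.76 (24 h) for Jak2 over Jak1.

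Shares per length within a library are likewise unchanged by a single scaling factor. They do depend on the length used, here merged exons, and shares by the longest transcript were not computed. By the longest transcript Jak1 stood above Jak2 without stimulus at 6 h, at 48.9 against 33 CPM per kb. Of the summed CPM per kb of the 4 kinases, Jak2 made up 35.9 ± 2.02% (SD, n = 4) without and 73.9 ± 2.15% with the stimulus at 6 h, and 27.8 ± 1.11% against 66.8 ± 0.663% at 24 h. The share of Jak1 went from 36.2 ± 1.4% to 12.1 ± 0.692% at 6 h and from 41.6 ± 0.331% to 14.7 ± 0.682% at 24 h. That of Tyk2 went from 25.2 ± 1.23% to 10.4 ± 0.854% and from 23.4 ± 0.644% to 12.5 ± 0.289%, although its CPM rose. Jak3 contributed 2.7 ± 0.204% without and 3.58 ± 0.606% with the stimulus at 6 h, and these overlapped, and 7.18 ± 0.654% against 6 ± 0.564% at 24 h, which overlapped too.

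Of the 4 receptor chains, Ifngr1 made up 44.7 ± 2.45% (SD, n = 4) of the summed CPM per kb without and 18 ± 1.08% with the stimulus at 6 h, and 47.4 ± 1.59% against 29.7 ± 1.82% at 24 h. The share of Ifngr2 rose from 23.7 ± 0.935% to 33.7 ± 2.72% at 6 h and from 18.2 ± 0.683% to 33.3 ± 1.04% at 24 h, and that of Ifnar2 from 12.6 ± 0.195% to 25.7 ± 2.71% and from 15.8 ± 1.02% to 21.2 ± 1.66%. Ifnar1 went opposite ways, from 19 ± 1.34% to 22.7 ± 1.01% at 6 h and from 18.6 ± 0.62% to 15.7 ± 0.633% at 24 h. In each of these comparisons of receptor chains the 4 stimulated libraries did not overlap the 4 unstimulated ones. The summed CPM per kb under the deposited scaling was 331 ± 14.2 without and 159 ± 5.91 with the stimulus at 6 h for the receptor chains, and 91.8 ± 5.1 against 424 ± 44.3 for the kinases.

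**Figure D4:**
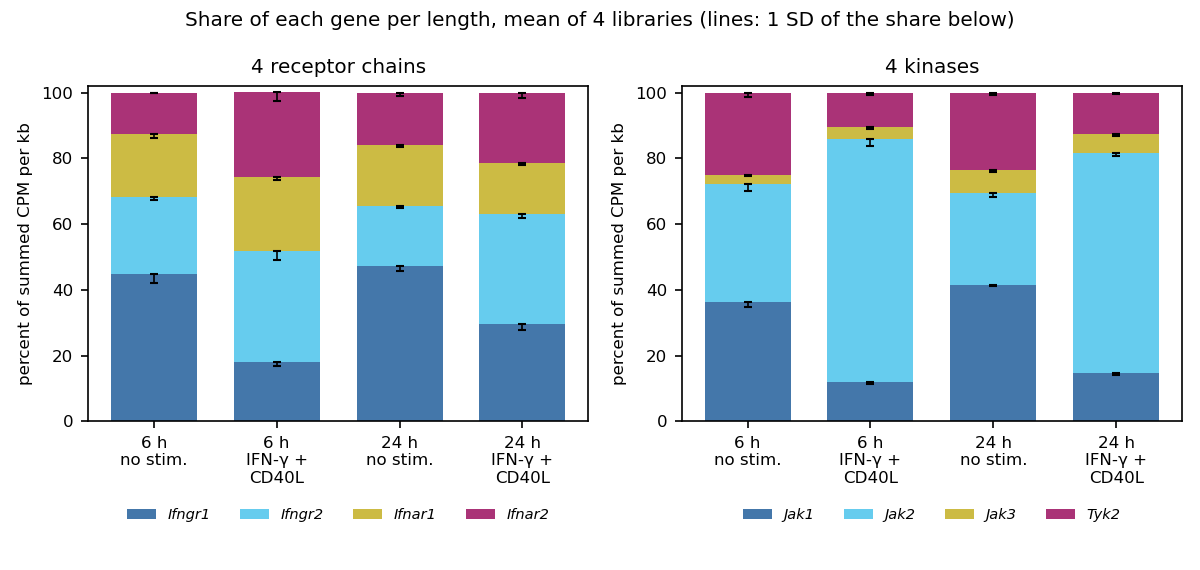
Share of each gene in the summed CPM per kb of merged exon, in percent, for the 4 receptor chains (left) and the 4 kinases (right). Segments are the mean of 4 libraries per condition, with a line of 1 SD below the top of each segment. Jak2 rises from 35.9% to 73.9% of the kinases at 6 h and Ifngr1 goes from 44.7% to 18% of the receptor chains.

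The genotype comparisons ask whether loss of NFAM1 alters these genes. In unstimulated cells at 6 h 0 of the 8 were called at 2-fold (limma), where 0.0861% of tested genes were, and 0 passed at any fold change, where 0.156% did. An unadjusted p under 0.05 went to 2 of the 8 and to 10.1% of tested genes. The 2 were Ifngr1, higher in NFAM1-/- by 0.23 on the log2 scale (95% interval 0.08 to 0.37, limma adjusted p = 0.241), and Jak2, lower by -0.27 (95% interval -0.47 to -0.07, limma adjusted p = 0.315). Neither difference passed the adjustment. The other 6 differences ran from -0.09 to 0.05.

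With the stimulus at 6 h 0 of the 8 passed (limma), where 0% of tested genes passed at 2-fold or at any fold change, and 1 had an unadjusted p under 0.05, where 14.6% of tested genes did. That was Jak2, with a log2 difference of -0.25 (95% interval -0.45 to -0.05, limma adjusted p = 0.253). WT_IFN_CD40L_6 replicate 26 decides the size of it. Without that library the difference was -0.11 (limma adjusted p = 0.911), and without WT_IFN_CD40L_6 replicate 10, which leaves replicate 26 as the lone NFAM1+/+ library, Jak2 (-0.39, limma adjusted p = 0.0214) and Ifngr2 (-0.30, limma adjusted p = 0.034) passed the adjusted test. Under the deposited scaling replicate 26 was highest in Jak2, Ifngr2, Ifnar1, Jak1 and Tyk2 of the 4 stimulated libraries at 6 h. It was lowest in Ifngr1, Ifnar2 and Jak3. With own totals replicate 26 held the same places except for Tyk2, where replicates 10 and 11 were higher. It also held the highest summed erythroid (45.3 CPM), conventional dendritic (47.3 CPM), plasmacytoid dendritic (131 CPM) and neutrophil (595 CPM) markers of these 4, and the part of this in its values was not tested.

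The effect of genotype on the stimulus response at 6 h was tested as an interaction, and 0 of the 8 passed (limma), where 0% of tested genes passed at 2-fold or at any fold change. An unadjusted p under 0.05 went to 1 of the 8, where 8.53% of tested genes had one. It was Ifngr1, with a log2 difference of -0.22 (95% interval -0.42 to -0.01, limma adjusted p = 0.568). The intervals of the 8 reach from -0.42 to 0.54, and 2-fold effects of genotype on the response at 6 h lie outside them. They rest on groups of 2 libraries tested as independent and were not adjusted for the 8 genes, so no effect is called excluded. The largest absolute difference among the 8 was 0.22. It was 0.33 without WT_NoStm_6 replicate 1 and 0.31 without WT_IFN_CD40L_6 replicate 10.

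At 24 h, by title, 0 of the 8 were called without the stimulus (limma), where 0.289% of tested genes were, and 0 with it, where 0.579% were. At any fold change 0 passed in both, where 0.954% and 2.1% of tested genes did. An unadjusted p under 0.05 went to 1 of the 8 without the stimulus, where 10.9% of tested genes had one, and to 2 with it, where 15.6% had one. Jak3 differed by -0.24 without the stimulus (limma adjusted p = 0.429) and by 0.25 with it (limma adjusted p = 0.278), and Ifngr1 by 0.19 with it (limma adjusted p = 0.187). Without the stimulus the libraries titled KO held more summed conventional dendritic markers (244 and 279 against 129 and 146 CPM). Their neutrophil, B cell, T cell, NK cell and plasmacytoid dendritic cell sums were also higher, and their monocyte and erythroid sums lower. With the stimulus their monocyte, NK cell and plasmacytoid dendritic cell sums were higher and their T cell and erythroid sums lower. The part of these shifts was not tested. The largest absolute difference among the 8 was 0.24 without and 0.25 with the stimulus by title, 0.14 and 0.17 by tag, and 0.15 in both without the 4 libraries with conflicting labels. Leaving out 1 library took it from 0.16 (without KO_NoStim_24 replicate 46) to 0.32 (without KO_NoStim_24 replicate 43) in unstimulated cells, and from 0.13 (without KO_IFN_CD40L_24 replicate 58) to 0.36 (without KO_IFN_CD40L_24 replicate 55) in stimulated cells. By genotype tag 0 of the 8 passed in both comparisons too (limma). Leaving out the 4 libraries with conflicting labels leaves 1 library of each genotype per condition at 24 h. No conclusion on genotype is drawn from that fit.

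Genes related to interferon receptors and Janus kinases moved with the stimulus in different ways. All 8 genes of the list of targets of IFN-γ were called higher at 6 h, where 19.1% of all tested genes were, with a median log2 change of 7.46 beside -0.13 over all tested genes. They include Cxcl9, a chemokine for T cells, at 6.42 CPM without and 13726 CPM with the stimulus (means, n = 4), and Gbp2, a guanylate-binding protein, at 20.7 against 23773 CPM. These are the same libraries in which Ifngr1 was low.

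Of 19 feedback inhibitors and phosphatases 8 were called higher and 1 lower at 6 h, where 19.1% and 20.6% of all tested genes were, with a median log2 change of 0.52. Own totals lower every change at 6 h by more than 0.52, so the sign of this median turns with the scaling. Socs1, which binds and blocks Jak1, Jak2 and Tyk2, rose from 1.91 ± 0.964 to 1233 ± 230 CPM (SD, n = 4), a log2 change of 9.43 (limma adjusted p = 9e-14). Usp18, which limits type I receptor signalling at Ifnar2, rose by 7.75 and Cish by 5.83 on the log2 scale, and Socs5 was lower by -1.93. At 24 h 8 were called higher and 0 lower (limma), where 14.6% and 18.7% of all tested genes were.

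Of 21 genes for interferons, 1 was listed in the table. Ifnb1, the gene for IFN-β, had 0 to 12 reads in the unstimulated and 1934 to 3995 reads in the stimulated libraries at 6 h, and a mean of 56 ± 17.7 CPM with the stimulus (SD, n = 4). At 24 h its stimulated mean was 1.63 ± 0.54 CPM. Ifng itself is not in the table.

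Other receptor chains that work through Janus kinases were mixed. Of the 36 on the list 26 were tested at 6 h, and 14 were called higher and 2 lower, where 19.1% and 20.6% of all tested genes were, with a median log2 change of 1.37. Il12rb1, a chain of the IL-12 receptor that pairs with Tyk2, rose by 10.73 and Il15ra, the IL-15 binding chain, by 7.99 on the log2 scale. Il23r had 0 reads in the 4 unstimulated libraries at 6 h and 47 to 70 in the stimulated ones, at least 33.1-fold higher against a floor of 3 reads a library. Ifnlr1, the ligand-binding chain of the type III interferon receptor, was lower by -3.91 (28.2 ± 4.66 against 1.99 ± 0.836 CPM), and Il6ra was lower by -1.18. At 24 h 12 were called higher and 5 lower, where 14.6% and 18.7% of all tested genes were, and Ifnlr1 differed by 0.30 (limma adjusted p = 0.183) under the deposited scaling and by -0.0350 with own totals. Ifnlr1 passed after quantile normalization (0.49, limma adjusted p = 0.0337) and without KO_IFN_CD40L_24 replicate 55 (0.50, limma adjusted p = 0.0305) or WT_IFN_CD40L_24 replicate 56 (0.49, limma adjusted p = 0.0352).

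Position in the genome gives a second view of the 8 genes. Ifnar2, Ifnar1 and Ifngr2 lie together on chromosome 16, with 112.5 kb between the starts of Ifnar2 and Ifnar1 and 61.8 kb between those of Ifnar1 and Ifngr2, and the other 5 lie on chromosomes 4, 8, 9, 10 and 19. Within 250 kb of the starts of the 8 genes lie 59 other tested genes, of which 14 were called higher and 20 lower at 6 h, where 19.1% and 20.6% of all tested genes were, and 10 each at 24 h, where 14.6% and 18.7% were. Il10rb, a chain of the IL-10 receptor between Ifnar2 and Ifnar1, was lower by -0.76 at 6 h and -0.51 at 24 h (limma adjusted p = 1.71e-08 and 1.51e-06), not past 2-fold under the deposited scaling. Of the 13 tested neighbours of Ifnar1, 1 was called higher at 6 h, Tmem50b (1.43), and 6 were called lower. Of all tested genes 19.1% were called higher and 20.6% lower.

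Around Jak2, on chromosome 19, 4 of 7 tested neighbours were called higher at 6 h (limma), where 19.1% of all tested genes were, and 5 at 24 h, where 14.6% were. At both times 0 were called lower, where 20.6% and 18.7% of all tested genes were. They include Cd274, the gene for the checkpoint ligand PD-L1, and Pdcd1lg2, the gene for PD-L2. Pdcd1lg2 rose by 2.30 at 6 h and 2.94 at 24 h on the log2 scale. The called neighbours of Jak2 at 6 h, Insl6, Plgrkt, Cd274 and Pdcd1lg2, all start on the same side of it, and on the other side Rcl1 was called at 24 h (2.61) and not at 6 h (0.30). Own totals lower every change at 6 h by more than 0.30, so the sign of Rcl1 at 6 h turns with the scaling. Of the 20 tested neighbours of Tyk2, 5 were called higher and 6 lower at 6 h, where 19.1% and 20.6% of all tested genes were. Among them Icam1, an adhesion molecule for leukocytes, rose by 2.75 and Keap1 by 1.82 at 6 h.

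**Figure D5:**
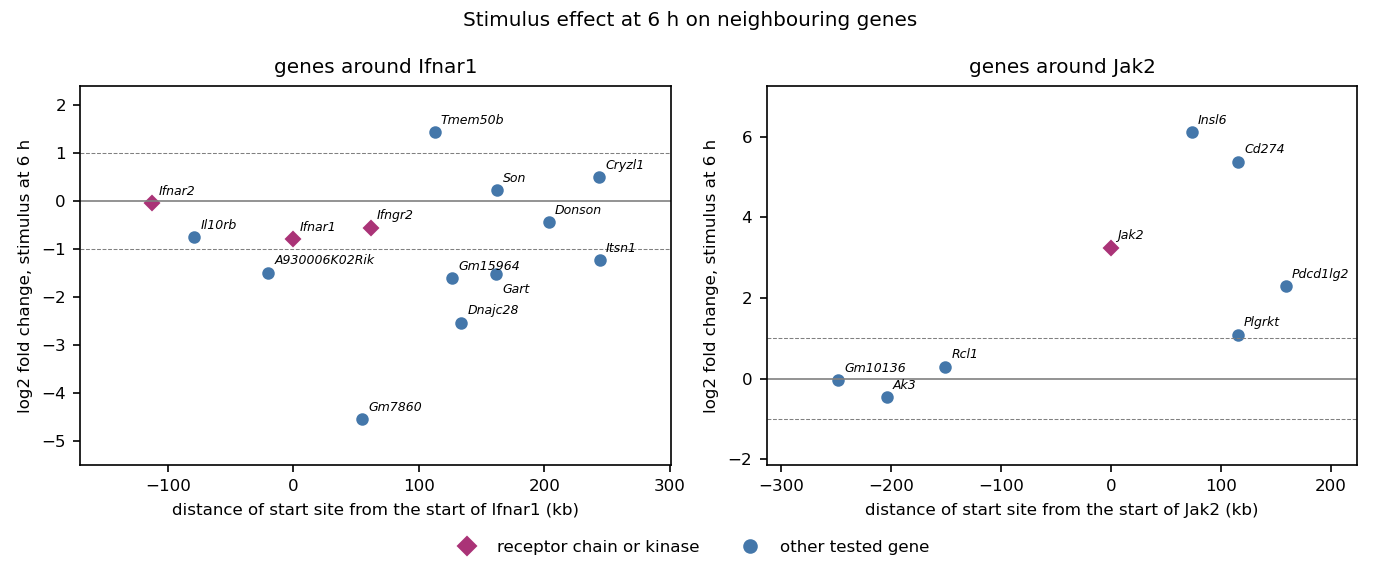
Log2 fold change with the stimulus at 6 h (deposited scaling) of the tested genes within 250 kb of Ifnar1 (left) and Jak2 (right) against the distance of their start sites in kb, with diamonds for the receptor chains and Jak2, and dashed lines at a 2-fold change. On the right Jak2 (3.25) and the 4 called neighbours lie at and beyond its start. On the left are Ifnar2 (-0.05), Ifnar1 (-0.80) and Ifngr2 (-0.56), with 6 neighbours called lower, 1 called higher and the others not called. Ifnar2 changes sign under centring on medians.

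The pattern of each gene over the 16 libraries was compared with that of all tested genes by Pearson's r of the log2 values. This is a description across libraries that share the same 4 conditions, and r was computed under the deposited scaling alone. Nearest to Jak2 were Stxbp3 (r = 0.998), Clic4 (0.998) and Ccnd2 (0.998), and nearest to Jak3 were Ppt1 (0.992), Lgals3bp (0.991) and Sdc3 (0.989). Nearest to Tyk2 were Phf11c (0.993), Pcgf5 (0.993) and Acadl (0.992), and nearest to Jak1 were Mcur1 (0.984), Tns3 (0.982) and Cds1 (0.978). Ifngr1 was most like Parp1 (0.997), Bmf (0.996) and Krt80 (0.995). Ifnar1 was most like Irf2bpl (0.989), Clec4a2 (0.988) and Hpgd (0.987), and Ifnar2 like Enpp1 (0.973), Cnksr3 (0.971) and Aldh2 (0.958). For Ifngr2 the nearest were Gm45752 (0.958), Sgms1 (0.952) and Armc7 (0.946). Among the 8 themselves Jak2 and Tyk2 were closest (r = 0.985), and Ifngr1 ran opposite to Jak2 (r = -0.994).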

How the data were processed

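The authors sequenced non-stranded polyA libraries, aligned them with STAR, counted with Rsubread and deposited log2 CPM made with edgeR and limma. The processing notes name the build GRCm39, whereas GENCODE vM21 and RefSeq promoters (both GRCm38) gave lengths, positions and sequence here. Reads were recovered by inverting each deposited log2 value, and every result was whole within a tolerance of 0.05. A gene was tested if 2 or more of the 16 libraries reached 1 CPM, which kept 12782 genes and left out 303. A single limma 3.58.1 model (R 4.3.3) with the 8 title groups, 8 residual degrees of freedom and a trended prior gave all comparisons. Genes were called at a Benjamini-Hochberg adjusted p under 0.05 and a fold change of at least 2. Pairs were tested by exact permutation. Beside the 8, up to 3 genes with the largest rise and 3 with the largest fall were named from each list among those called with the stimulus at 6 h. The lists reported hold feedback inhibitors and phosphatases, interferon ligands, other receptor chains and targets of IFN-γ. Neighbours and marker genes were named after their values were seen. Members and lists were chosen with earlier results of these data known. Alternatives covered filters, scalings, prior, weights, samples in the fit, genotype labels, gene length and each library left out.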

Additional observations from a re-analysis of the deposited data

Results flagged for a closer look

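Tyk2 in WT_NoStm_6 replicate 2 stood apart from the other 3 unstimulated libraries at 6 h, at 168 CPM against 155 to 156 CPM, with a gap over range of 0.948. It was the 1 such case in 32 groups of 4 libraries, and chance alone marks about 1 in 20.

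The stimulus effects at 24 h and 6 h differed (limma, log2 difference) by 0.53 for Ifngr1, 0.26 for Ifngr2, -0.61 for Ifnar1, -0.70 for Ifnar2 and -1.31 for Jak3. For Jak1 it was -0.57, and after quantile normalization -0.13, which did not pass (limma adjusted p = 0.0741). For Jak2 the difference was -0.44 and for Tyk2 -0.29 under the deposited scaling, and after quantile normalization these stood at 0.07 and 0.10, so neither has a direction. With own totals the difference was 0.93 for Ifngr1, 0.66 for Ifngr2, -0.21 for Ifnar1, -0.31 for Ifnar2 and -0.91 for Jak3. Among other settings, that of Ifngr2 did not pass with no trend in the prior (limma adjusted p = 0.0519) or after centring on medians (limma adjusted p = 0.402).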

How the results depend on the processing

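No paired analysis was possible because replicate numbers are unique to each group and link no libraries between groups.

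With only genes of a mean of at least 5 CPM, 3275 genes were called with the stimulus at 6 h, 2554 at 24 h, 2658 for the difference of responses, 1446 and 2746 for time without and with the stimulus, and 5 in place of 11 for genotype in unstimulated cells at 6 h. Of the 8 genes, 5 in place of 3 were called with the stimulus at 6 h under own totals and under quantile normalization, where 7125 and 4892 of the 12782 tested genes were, in place of 5069. For the difference of responses 0 in place of 1 were called under own totals, where 4805 tested genes were, and 5 in place of 8 passed at any fold change after quantile normalization. For time with the stimulus 1 in place of 0 was called under own totals, where 4890 tested genes were. Among called genes, the percent higher went from 48.1 to 21.9 at 6 h, 43.9 to 30.4 at 24 h, 42.1 to 67.4 for the difference and 49.0 to 69.3 for time with the stimulus under own totals, and to 37.8 for the last after centring.

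Some signs turned, mostly with the scaling, and the cause was not tested. With the stimulus at 6 h Ifnar2 was 0.12 after centring and Jak1 -0.11 with own totals and -0.24 after quantile normalization. At 24 h Jak1 was -0.29 and -0.37 in the same order, and Ifnlr1 -0.0350 with own totals. For the difference of responses Jak2 was 0.0690 after quantile normalization and Tyk2 0.11 with own totals and 0.10 after quantile normalization. For time with the stimulus Ifngr2 was -0.16 after centring and -0.0092 without the 4 conflicting libraries, Jak3 -0.0456 after centring, Ifnar2 0.13 with own totals, Jak1 0.0311 and 0.13 and Tyk2 0.0096 and 0.0655 with own totals and quantile normalization.

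Genotype counts over all genes were small and unsteady. At 6 h title and tag name the same genotype in every library, so by tag only the shared estimate of the spread changed there. At 6 h without the stimulus they were 5 by tag in place of 11, and with it 5 after quantile normalization and 3 without the conflicting libraries in place of 0. At 24 h without the stimulus they were 14 with no trend, 21 with only the groups compared, 2 by tag and 4 without the conflicting libraries, in place of 37. With it they were 5, 0, 3 and 14 in the same order, in place of 74. Leaving out 1 library at a time gave 1 to 40 and 0 to 126 at 6 h without and with the stimulus, 0 to 55 for the interaction, and 7 to 64 and 1 to 182 at 24 h. Of the 8 genes 0 to 2 passed with the stimulus at 6 h. A library left alone in its group is assumed to vary like the other groups. Ifnar2 with the stimulus at 6 h ran from -0.10 to 0.0024 and Ifngr2 for time with the stimulus from -0.0683 to 0.11. With the longest transcript 15 of 32 positions in the order of levels stayed the same. Filters, prior, genotype tags and a fit of only the groups compared leave the stimulus and time log2 changes of the 8 genes unaltered. Under these direction could not turn, and most values that failed to keep direction or significance under the alternatives came from the other scalings. Over the stimulus and time results of the 8 genes, 450 of 480 values under the alternatives kept direction and their side of an adjusted p of 0.05, fold change aside, and 631 of 640 with 1 library left out.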
